A study of Mus musculus with 50 samples.

Results

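A set of 10 genes that move sodium, chloride and butyrate across the colon epithelium were followed through whole-colon RNA of 50 mice. They were chosen by name for their role in transport: the epithelial sodium channel (ENaC) subunit genes Scnn1a, Scnn1b and Scnn1g, the chloride-bicarbonate exchanger Slc26a3, the sodium-proton exchanger Slc9a3, the butyrate carriers Slc5a8 and Slc16a1, the chloride channel Cftr, and the aldosterone-pathway genes Nr3c2 and Sgk1. All 10 were among the 19494 genes measured, each by 1 probe set. Each title number has 1 Affymetrix array, made from 100 ng of RNA and taken here as 1 mouse, and each value is a log2 signal, so a difference of 1 is a 2-fold difference.

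The mice were 10 to 12 weeks old by the study's design text and 11 weeks by the sample descriptions. They fall into 10 groups of 5 arrays, formed from 8 genotypes and the 2 runs of numbers in the array titles, 1 to 30 and 86 to 124. The labels do not say what the runs of numbers stand for, so groups were compared within a run unless stated. The controls carried floxed alleles without deletion, Fadd fl/fl in the first run (1-30) and Casp8 fl/fl in the second (86-124). FADD IEC-KO and CASP8 IEC-KO mice, which by their label lack Fadd or Casp8 in intestinal epithelial cells, were in both runs. Co-deletions in the first run were FADD IEC-KO Zbp1 -/-, the Mlkl -/- counterpart FADD IEC-KO Mlkl -/-, and CASP8 IEC-KO Mlkl -/-. The second run held FADD IEC-KO RIPK3 IEC-KO. By their labels Zbp1 and Mlkl were lost in the whole animal and Ripk3 in the epithelium. The driver of the epithelial deletion is not given in the labels, and no group carried the Zbp1, Mlkl or Ripk3 loss without a FADD or CASP8 deletion. The floxed control of a run was not always that of the deleted gene: FADD IEC-KO of the second run was set against Casp8 fl/fl, and CASP8 IEC-KO of the first against Fadd fl/fl. Adjusted p-values throughout are from limma with Benjamini-Hochberg adjustment over all 19494 genes, and a gene was called at an adjusted p under 0.05.

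The colon absorbs salt and water from its contents. In one route SLC9A3, an apical sodium-proton exchanger, works side by side with SLC26A3, an apical chloride-bicarbonate exchanger, so that sodium and chloride enter together. In the other, used most in the distal colon, sodium enters alone through ENaC, a channel of alpha, beta and gamma subunits. Aldosterone acts on the mineralocorticoid receptor, encoded by Nr3c2, and raises ENaC activity in part through the kinase SGK1, which restrains removal of the channel by the ubiquitin ligase NEDD4L. In the distal colon the beta and gamma subunits are the ones known to be induced by aldosterone. CFTR releases chloride and drives fluid secretion. Butyrate, made by bacteria and burned by colonocytes as fuel, is taken up through SLC5A8, a sodium-coupled carrier, and SLC16A1, a proton-coupled carrier. FADD and caspase-8 hold back necroptosis, which is carried out by RIPK3 and MLKL and can be set off through ZBP1.

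The promoter sequences of the members were read from RefSeq on GRCm38.p6, from 250 bases before to 50 after each gene start. A window was found for 9 of the 10 members, with 6 windows for Sgk1. Both strands were searched for 6 motifs: the half-site AGAACA of steroid hormone receptors, the palindrome made of that half-site, a gap of 3 bases and its reverse complement, the E-box CACGTG, the GAS element TTCNNNGAA, the TATA box TATAAA and the NF-kappaB consensus site. The half-site lies within each palindrome. Shown are Scnn1b and Scnn1g, which varied together over arrays, Slc26a3 and Nr3c2, which did so too, and the stretches of Sgk1 and Slc9a3 that hold a motif tied to aldosterone action or to the circadian clock. Capitals mark the motif matches.
Scnn1b, chr7:121864788-121865087, + strand: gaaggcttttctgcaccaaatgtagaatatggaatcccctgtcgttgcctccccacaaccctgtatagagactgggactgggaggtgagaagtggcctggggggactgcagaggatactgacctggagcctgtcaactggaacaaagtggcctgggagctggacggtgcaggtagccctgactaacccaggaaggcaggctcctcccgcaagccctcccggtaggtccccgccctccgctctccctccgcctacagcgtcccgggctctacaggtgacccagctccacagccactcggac
Scnn1g, chr7:121734229-121734528, + strand: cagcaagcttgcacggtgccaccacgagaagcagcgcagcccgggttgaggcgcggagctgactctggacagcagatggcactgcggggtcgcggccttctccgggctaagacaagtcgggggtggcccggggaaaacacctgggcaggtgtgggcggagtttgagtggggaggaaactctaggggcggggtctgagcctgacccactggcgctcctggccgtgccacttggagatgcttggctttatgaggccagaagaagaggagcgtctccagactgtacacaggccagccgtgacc
Slc26a3, chr12:31437969-31438268, + strand: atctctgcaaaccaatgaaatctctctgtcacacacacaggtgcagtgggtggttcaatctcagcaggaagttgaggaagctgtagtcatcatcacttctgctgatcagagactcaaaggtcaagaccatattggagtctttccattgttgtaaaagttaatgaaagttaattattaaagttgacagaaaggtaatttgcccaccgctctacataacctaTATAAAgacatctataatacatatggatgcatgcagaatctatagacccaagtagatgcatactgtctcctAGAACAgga
Nr3c2, chr8:76902080-76902379, + strand: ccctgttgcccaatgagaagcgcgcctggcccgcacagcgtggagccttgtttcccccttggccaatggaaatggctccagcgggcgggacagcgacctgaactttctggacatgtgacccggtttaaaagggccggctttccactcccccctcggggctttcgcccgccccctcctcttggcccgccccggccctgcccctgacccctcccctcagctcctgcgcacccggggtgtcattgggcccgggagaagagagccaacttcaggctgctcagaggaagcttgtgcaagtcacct
Sgk1, chr10:21993671-21993745, + strand: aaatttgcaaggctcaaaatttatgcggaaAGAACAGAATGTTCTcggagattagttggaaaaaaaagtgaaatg
Slc9a3, chr13:74121296-74121361, + strand: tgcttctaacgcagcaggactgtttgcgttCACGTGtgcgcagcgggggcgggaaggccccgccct
None of the 6 motifs was in the Scnn1b, Scnn1g or Nr3c2 window. The Slc26a3 window held a TATA box whose first base is at position -30 from the start and a half-site that begins at position 42. These were present in 13.6% and 19.0% of the 32851 windows searched. The palindrome was found in 1 of the Sgk1 windows, from position -189, and in 3 windows in all, or 0.00913%. The E-box of Slc9a3 begins at position -87, Slc16a1 has one at position -200, and 7.15% of windows hold one. Other Sgk1 windows held half-sites and TATA boxes, and the one with the palindrome also an E-box. The GAS element (8.30% of windows) was in 1 Sgk1 window and the NF-kappaB site (0.155%) in no member's window. The Slc26a3 window was 39.3% G or C, against 61.7% for Scnn1b, 64.7% for Scnn1g, 65.7% for Nr3c2 and a median of 52.7% over all windows. A match describes the letters of the window and was not tested as a binding site.

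The arrays carried the signal of colon epithelium. Epcam, an epithelial adhesion gene, lay at log2 signals of 11.74 to 12.05, and Car1, a colonocyte carbonic anhydrase, at 11.05 to 12.97. Sis and Lct, defining genes of small intestinal enterocytes, reached at most 6.08 and 5.77, while Fabp6, an ileal gene, ranged from 4.66 to 7.59. Of kidney genes Umod reached at most 4.94, but Nphs1 read 8.26 to 9.18 on every array. The mean of 12 general epithelial genes was lowest in the floxed controls, at 10.65 in Casp8 fl/fl and 10.73 in Fadd fl/fl, against 10.77 to 10.86 in the other 8 groups. All 5 Casp8 fl/fl arrays (10.52 to 10.73) lay below all 5 of CASP8 IEC-KO of their run (10.74 to 10.96). Fadd was lower in both FADD IEC-KO groups, by 0.99 and 1.16 in log2 signal against the floxed control of the same run, and Casp8 in both CASP8 IEC-KO groups, by 1.18 and 1.52, as the labels say. The differences were -1.80 for Zbp1 in FADD IEC-KO Zbp1 -/-, -1.95 and -1.28 for Mlkl in the Mlkl -/- groups of FADD and CASP8 IEC-KO, and -1.41 for Ripk3 in the RIPK3 IEC-KO group, each against its single knockout and each with an adjusted p under 0.05. Array 22 of FADD IEC-KO in the first run stood apart, with a mean log2 signal of 14 neutrophil genes of 8.61. Arrays 23, 117 and 124, also FADD IEC-KO, followed at 6.96, 7.59 and 5.98, against 4.30 to 5.49 (median 4.53) over the 40 arrays of the other 8 groups. Arrays 22 and 23 are from the first run and 117 and 124 from the second, and each called member is also given without those of its run. Arrays 117 and 124, and the counts over gene lists, were treated so after the data were seen.

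In the first run the loss of FADD from the epithelium went with lower log2 signal of Nr3c2, Slc26a3 and Slc16a1, and the co-deletion of Zbp1 or Mlkl went with higher Nr3c2 and Slc26a3 and with lower Scnn1b. Of these changes, only the fall of Nr3c2 against Fadd fl/fl was still called without arrays 22 and 23 (-0.41, limma adjusted p 0.032). Scnn1g was also lower with Zbp1 loss, and that call held without the 2 arrays (-1.89, limma adjusted p 0.030). The Scnn1b differences lost their calls but changed little in size. They went from -0.82 to -0.79 with Zbp1 loss and from -0.73 to -0.70 with Mlkl loss, while those of Slc26a3 went from 0.72 to 0.17 and from 0.70 to 0.14. In FADD IEC-KO against Fadd fl/fl (1-30), 3 of the 10 members fell and none rose, where 18.7% of all genes were called (8.59% as higher and 10.1% as lower). In FADD IEC-KO against Casp8 fl/fl (86-124), 3 fell and none rose, where 11.0% of all genes were called (6.80% as higher and 4.25% as lower), and the members called were Sgk1, Cftr and Slc5a8. The 3 members called in one run were not those called in the other. A test of the difference between the runs called none of the 10 (smallest adjusted p 0.18, 0.123% of all genes called). In RNA of a whole tissue, fewer cells of a type and less RNA per cell cannot be told apart.

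Relative to FADD IEC-KO of the same run, Zbp1 loss gave 5 called members, 3 higher and 2 lower, where 10.8% of all genes were called (5.61% as higher and 5.14% as lower). Mlkl loss gave 4, 3 higher and 1 lower, where 5.85% were called (2.91% as higher and 2.93% as lower). These comparisons share the FADD IEC-KO arrays with each other and with the comparison to the floxed control. FADD IEC-KO RIPK3 IEC-KO against FADD IEC-KO (86-124) gave 0 of 10, where 0.754% of all genes were called by limma, and 2 members had an unadjusted p under 0.05. Of its 10 differences 9 were above 0, and 7 without arrays 117 and 124. Among the differences were those of Slc26a3, at 0.45 with arrays of 12.75, 12.38, 12.44, 12.66 and 12.56, and in Cftr, at 0.42 with arrays of 9.72, 9.56, 9.36, 9.58 and 9.73 (limma adjusted p 0.31 and 0.18). Both overlapped with FADD IEC-KO. Without arrays 117 and 124 they were 0.10 and 0.19 (limma adjusted p 0.94 and 0.78), and Scnn1g was then highest, at 0.85 against 0.14 with all arrays, and not called (0.46).

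CASP8 IEC-KO gave no called member against Casp8 fl/fl (86-124), where 2.46% of all genes were called, nor against Fadd fl/fl (1-30), where 0.123% were. In limma 2 members had an unadjusted p under 0.05 in each. Set against FADD IEC-KO over both runs, CASP8 IEC-KO had Cftr and Slc16a1 higher and Scnn1b lower, 3 of 10 called where 5.13% of all genes were (2.13% as higher and 3.00% as lower). CASP8 IEC-KO Mlkl -/- against CASP8 IEC-KO called none of the 10 in limma, where 0.421% of all genes were called, with 2 at an unadjusted p under 0.05.

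The 4 co-deletions against the floxed control of their run also called no member. The shares of all genes called in these were 1.07% for FADD IEC-KO Zbp1 -/-, 0.159% for FADD IEC-KO Mlkl -/-, 0.0769% for FADD IEC-KO RIPK3 IEC-KO and 0.0462% for CASP8 IEC-KO Mlkl -/-. The counts at an unadjusted p under 0.05 in limma were 1, 1, 0 and 3 of 10. The floxed controls of the 2 runs, which differ in allele as well as run, gave 0 called members (0.0359% of all genes) and none at an unadjusted p under 0.05. For all 10 members the arrays of the groups overlapped in CASP8 IEC-KO against Fadd fl/fl (2.71% of all genes did not overlap), in FADD IEC-KO RIPK3 IEC-KO against FADD IEC-KO (3.28%) and against Casp8 fl/fl (2.51%), between the floxed controls (1.83%) and between CASP8 and FADD IEC-KO over both runs (0.0359%). The median difference of the 10 members for FADD IEC-KO against its floxed control was -0.21 in the first run and -0.32 in the second, against -0.02 and -0.03 over all genes. With Zbp1 or Mlkl loss the median of the 10 against FADD IEC-KO was 0.19 and 0.30, against 0.01 over all genes in both. Without arrays 22 and 23 the median of the 10 was -0.06 in FADD IEC-KO of the first run, 0.02 with Zbp1 loss and 0.12 with Mlkl loss. Without arrays 117 and 124 it was -0.18 in the second run.

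**Figure D1:**
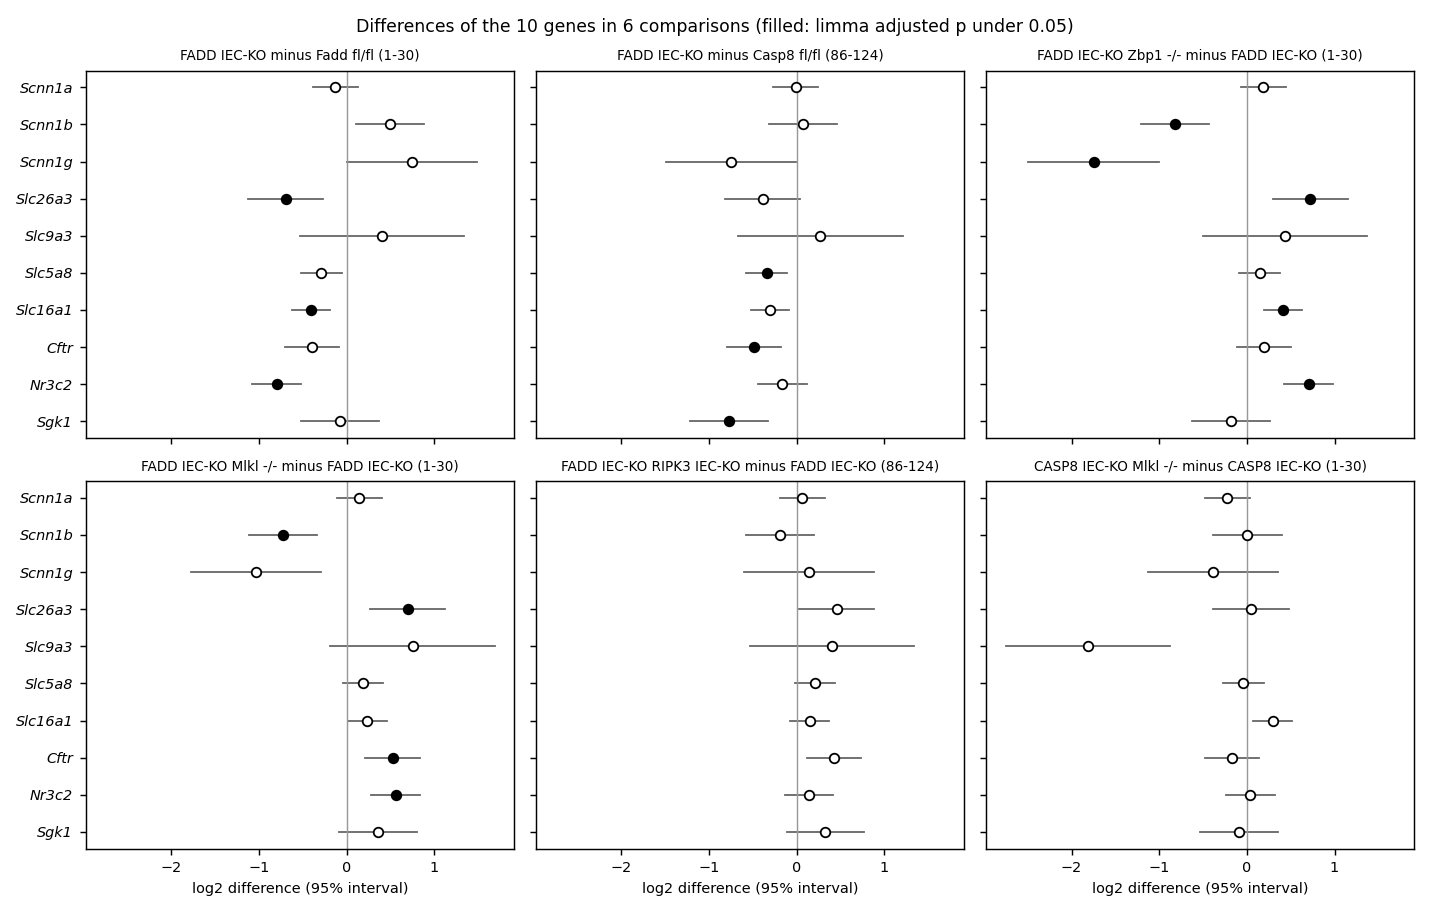
Difference in log2 signal (horizontal axis) of the 10 genes (vertical axis) in 6 comparisons, with the 95% interval from limma; filled points have an adjusted p under 0.05. Slc26a3, Slc16a1 and Nr3c2 lie below 0 in FADD IEC-KO (1-30) and above 0 with Zbp1 loss, while Scnn1g lies at 0.75 in the first and at -1.75 in the second.

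Over all 50 arrays the mean log2 signals of the members stood between the 67.7th percentile of all genes, for Scnn1b, and the 99.9th, for Slc26a3. Their spread within groups differed widely. Slc9a3 had a residual SD of 0.78, at the 99.7th percentile of all genes, and Scnn1g one of 0.62, at the 99.4th. Slc16a1 and Slc5a8 varied least, at 0.17 and 0.18. When the 10 group means of a member were put in order, no step between neighbours was larger than the larger of the 2 SDs for Scnn1a, Slc26a3, Slc9a3, Slc5a8, Cftr and Sgk1. For Scnn1b, Scnn1g, Slc16a1 and Nr3c2 1 of the 9 steps was. FADD IEC-KO (1-30) had the lowest mean of the 10 groups for Scnn1a, Slc26a3, Slc5a8, Slc16a1, Cftr and Nr3c2, and the highest for Scnn1b and Scnn1g.

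**Figure D2:**
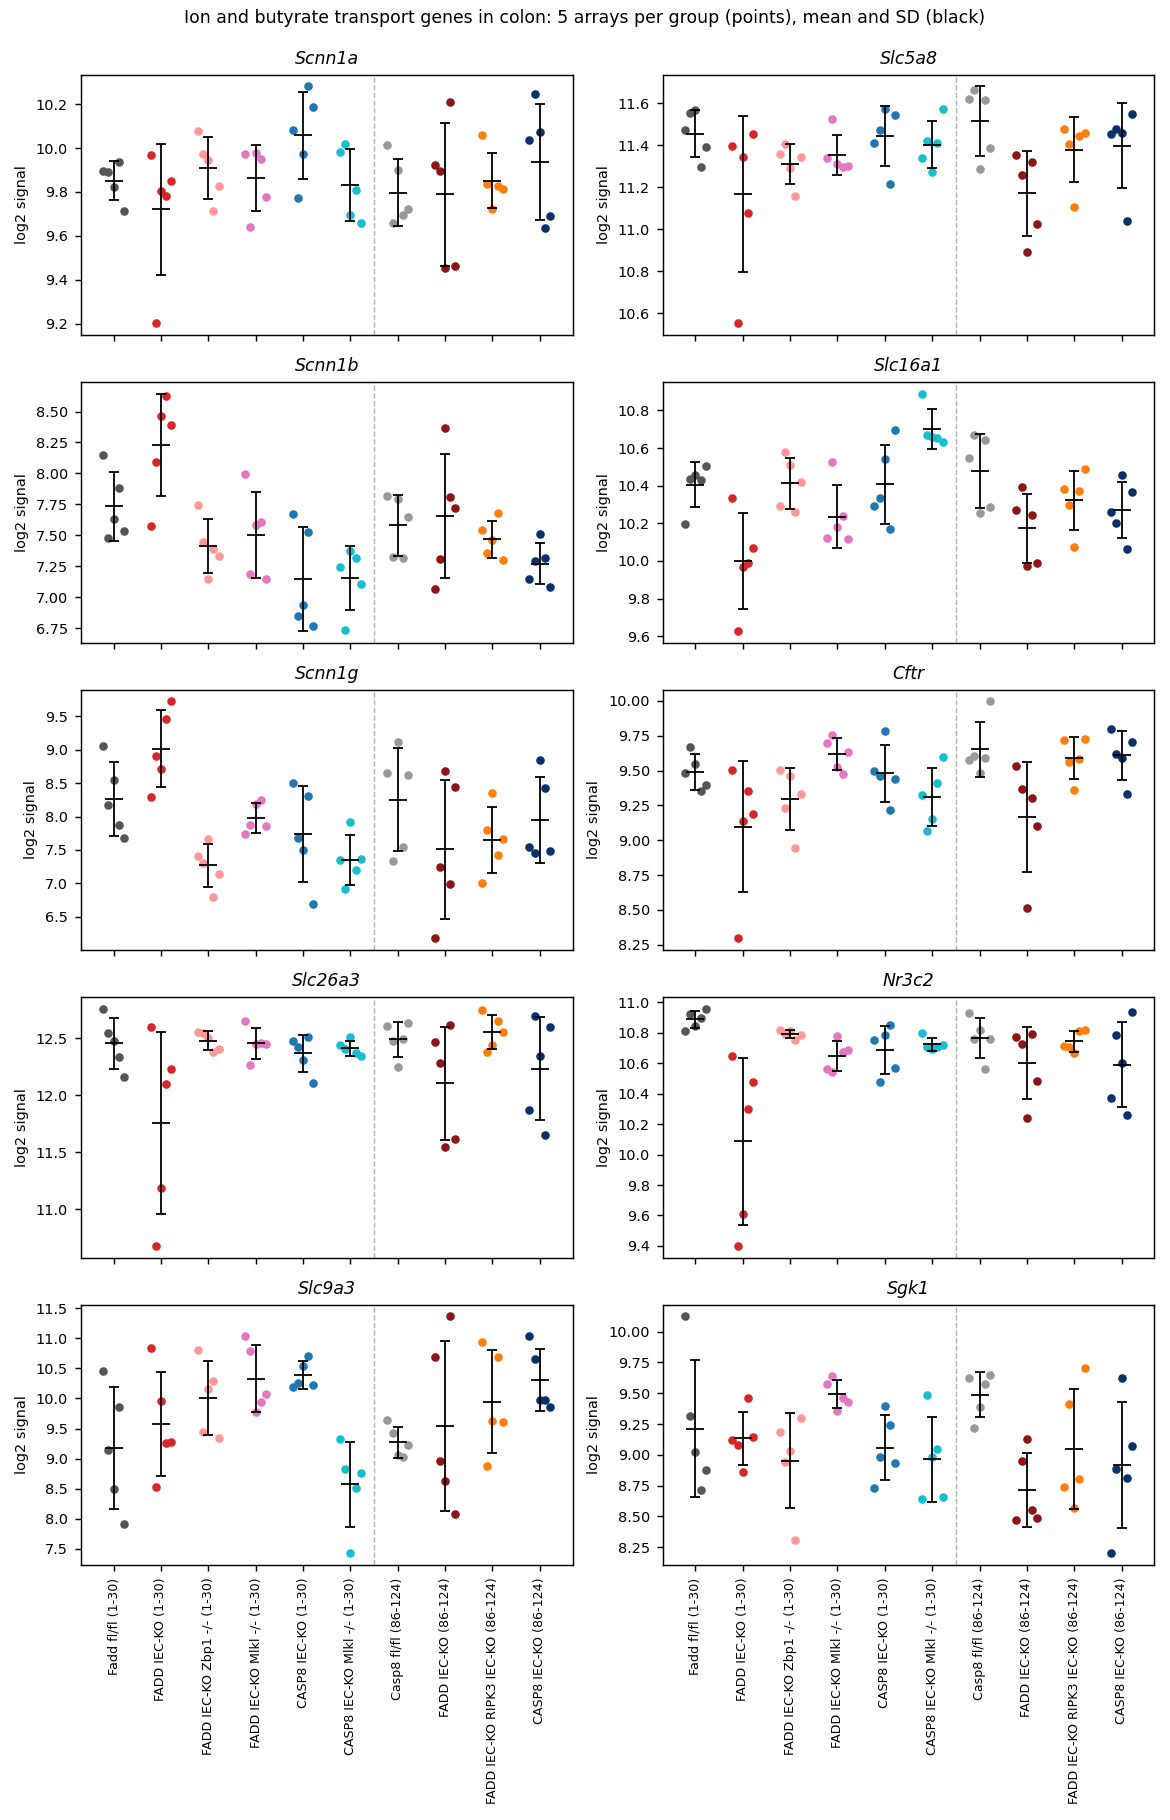
Log2 signal (vertical axes) of each gene in the 10 groups (horizontal axes), with 1 point per array and black bars for the mean and SD of 5 arrays; the dashed line parts titles 1-30 from 86-124. Scnn1g is highest in FADD IEC-KO (1-30) and lowest in FADD IEC-KO Zbp1 -/-, and the 2 lowest Nr3c2 and Slc26a3 points are arrays of FADD IEC-KO (1-30).

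Of the sodium channel genes, the gamma subunit gene Scnn1g differed most. Its log2 signals were 8.29, 8.91, 8.71, 9.46 and 9.72 in FADD IEC-KO (1-30). They were 7.42, 7.31, 7.67, 6.80 and 7.15 in FADD IEC-KO Zbp1 -/-. They were 7.74, 7.87, 8.19, 8.25 and 7.85 in FADD IEC-KO Mlkl -/-. All 5 arrays of each co-deletion lay below all 5 of FADD IEC-KO, and those of the Zbp1 group also lay below all 5 of the Mlkl group. The difference from FADD IEC-KO was -1.75 ± 0.37 (SE, n = 5 and 5) with Zbp1 loss, 1 of 2 members whose arrays did not overlap in that comparison (5.80% of all genes), with a limma adjusted p of 0.0021 (-1.89 and 0.030 without arrays 22 and 23). It was -1.04 ± 0.37 with Mlkl loss, which was not called (limma adjusted p 0.083; -1.22 and 0.033 without FADD IEC-KO 21), although Scnn1g was the member whose arrays did not overlap there (4.29% of all genes). The 2 co-deletions differed by -0.71, with a 95% interval of -1.46 to 0.03 and a limma adjusted p of 0.59.

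Against Fadd fl/fl, whose Scnn1g arrays read 9.06, 8.18, 8.55, 7.87 and 7.68, the Zbp1 group was 1.00 lower, again with no overlap (1 of 10 members, 3.90% of all genes), and was not called (limma adjusted p 0.18). FADD IEC-KO itself was 0.75 ± 0.37 above Fadd fl/fl, and the groups overlapped (limma adjusted p 0.16). In the second run the direction of the estimate turned. FADD IEC-KO (86-124) arrays read 6.18, 7.24, 8.69, 7.00 and 8.44 and Casp8 fl/fl arrays 8.66, 7.33, 9.12, 7.55 and 8.62, a difference of -0.75 ± 0.37 (limma adjusted p 0.19). The 2 high FADD IEC-KO arrays, at 8.69 and 8.44, were 117 and 124, the ones with high neutrophil genes. Without them the difference was -1.45 and was called (limma adjusted p 0.017, 3 arrays left). The difference between the runs was 1.49 ± 0.52 and not called (limma adjusted p 0.25), and it was 2.20 and called without those 2 arrays (limma adjusted p 0.013), and 1.63 and not called without arrays 22 and 23 (0.35).

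The beta subunit gene Scnn1b moved with it in the first run. Its log2 signals were 7.57, 8.09, 8.46, 8.62 and 8.39 in FADD IEC-KO (1-30). With Zbp1 loss they were 7.74, 7.45, 7.15, 7.39 and 7.33, and with Mlkl loss 7.99, 7.18, 7.58, 7.61 and 7.14. Of the 5 FADD IEC-KO arrays 4 lay above every array of both co-deletions, and array 21 lay among them. Scnn1b fell by 0.82 ± 0.19 with Zbp1 loss (limma adjusted p 0.0053) and by 0.73 ± 0.19 with Mlkl loss (limma adjusted p 0.018). The Mlkl call ended without FADD IEC-KO 23 (-0.67) or without Mlkl -/- array 12 or 15 (-0.65 and -0.64), and without arrays 22 and 23 together neither call held (-0.79 and -0.70, limma adjusted p 0.081 and 0.22). FADD IEC-KO was 0.49 ± 0.19 above Fadd fl/fl, which did not pass (limma adjusted p 0.068), but did without FADD IEC-KO 21 (0.66) or Fadd fl/fl 26 (0.60), while without arrays 22 and 23 it was 0.46 (0.26). In CASP8 IEC-KO the arrays read 7.67, 6.84, 6.94, 7.53 and 6.76 in the first run and 7.15, 7.30, 7.51, 7.31 and 7.08 in the second. Scnn1b was 0.73 ± 0.14 lower in CASP8 IEC-KO than in FADD IEC-KO over both runs (n = 10 and 10, limma adjusted p 0.0010), though arrays of the 2 genotypes overlapped. The gap was wider in the first run, with means of 7.15 and 8.23, than in the second, with 7.27 and 7.66. Without FADD IEC-KO arrays 22 and 23 the difference over both runs was -0.72 and called (limma adjusted p 0.0095). Without 117 and 124 as well it was -0.59 and not called (0.092).

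The alpha subunit gene Scnn1a, needed for a working channel, passed in none of the 19 contrasts in limma, 2 of which had an unadjusted p under 0.05. Its group means lay between 9.72 and 10.06, a range of 0.34 in log2 signal. FADD IEC-KO (1-30) read 9.97, 9.20, 9.80, 9.78 and 9.85 and Fadd fl/fl 9.90, 9.89, 9.82, 9.94 and 9.71. The difference was -0.13, with a 95% interval of -0.39 to 0.13, and array 22 was its lowest value. It was 0.01 without arrays 22 and 23.

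Scnn1b and Scnn1g both start on the + strand of chromosome 7, within the 2 windows given above. Over the 50 arrays their deviations from the group mean had a Pearson r of 0.65, and of 0.67 over the 48 arrays without 22 and 23. Both signals of a pair come from the same array and RNA, and the value is a description. The 3 genes whose deviations were most like those of Scnn1g were Itgb6, an epithelial integrin gene (0.63), Raph1 (0.63) and Anxa8 (0.61). For Scnn1b they were Pla2g4f (0.61), Cobll1 (0.60) and Rffl (0.59), and for Scnn1a L1cam (0.82), Anxa11 (0.81) and Pdk2 (0.80). Deviations of Scnn1g and Scnn1b ran opposite to those of Slc16a1, both with a Pearson r of -0.50 over 50 arrays.

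**Figure D3:**
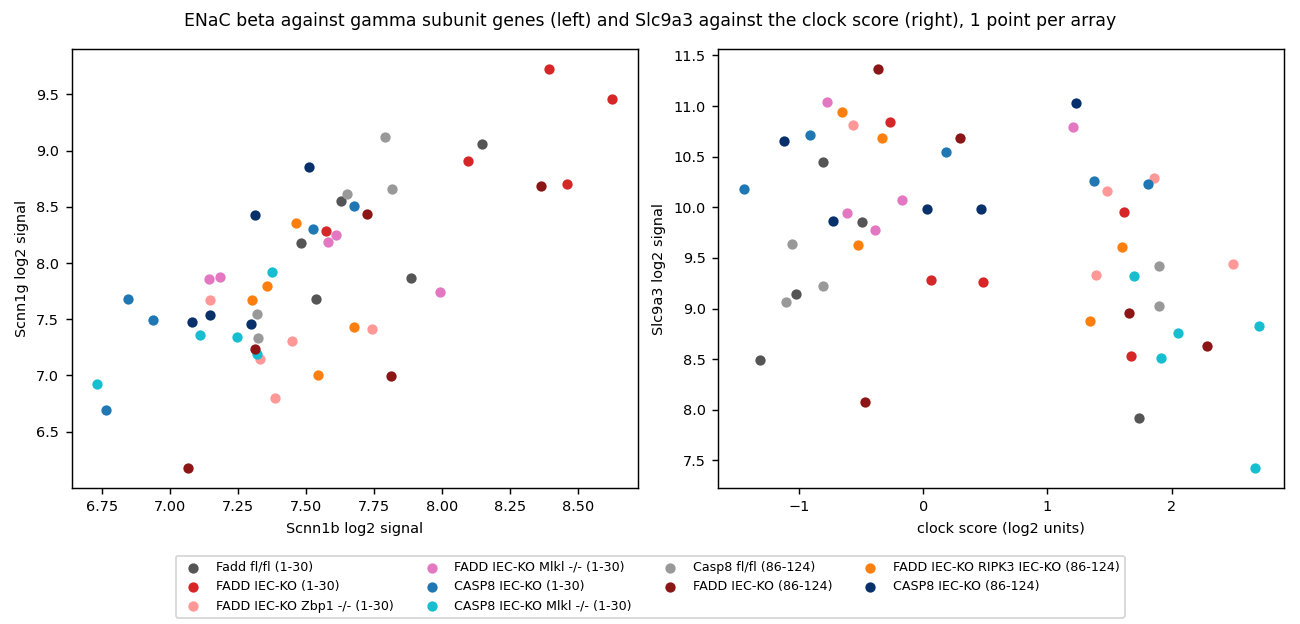
Left, log2 signal of Scnn1g (vertical) against Scnn1b (horizontal); right, log2 signal of Slc9a3 (vertical) against the clock score (horizontal), each point 1 of 50 arrays, coloured by group. The 5 arrays of CASP8 IEC-KO Mlkl -/- all have clock scores of 1.70 or more and Slc9a3 signals of 9.33 or less.

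Nr3c2, the gene of the mineralocorticoid receptor, gave the smallest adjusted p of the 10 members in FADD IEC-KO of the first run. Its log2 signals were 10.81, 10.92, 10.84, 10.90 and 10.96 in Fadd fl/fl. They were 10.65, 9.40, 9.61, 10.30 and 10.47 in FADD IEC-KO. All 5 FADD IEC-KO arrays lay below all 5 controls, and Nr3c2 was the 1 of 10 members for which this held (9.20% of all genes). The difference was -0.80 ± 0.14 (SE, n = 5 and 5, limma adjusted p 1.4e-04). That SE rests on the spread pooled over all 10 groups, while the SD was 0.55 in FADD IEC-KO and 0.06 in Fadd fl/fl. Arrays 22 and 23, with the high neutrophil genes, had the lowest Nr3c2 of the 50. Without them the difference was -0.41 and was called (limma adjusted p 0.032). The call held under each of the 20 alternatives, with adjusted p-values up to 0.035.

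In the co-deletions Nr3c2 was higher than in FADD IEC-KO. Zbp1 -/- arrays read 10.81, 10.79, 10.81, 10.75 and 10.79, a span of under 0.1 in log2 signal, and all lay above every FADD IEC-KO array. The difference was 0.70 ± 0.14 (limma adjusted p 0.0013). The Mlkl -/- arrays read 10.56, 10.54, 10.78, 10.67 and 10.69, and they overlapped with array 21 of FADD IEC-KO. That difference was 0.56 ± 0.14 (limma adjusted p 0.011). Without arrays 22 and 23 the differences were 0.32 and 0.17 and neither was called (limma adjusted p 0.15 and 0.64). Leaving out array 22 or 23 alone ended the Mlkl call (0.39 and 0.44). Against Fadd fl/fl the Mlkl group lay below all 5 controls (1 of 10 members, 2.92% of all genes), with a difference of -0.24 that did not pass (limma adjusted p 0.62).

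In the second run Nr3c2 read 10.77, 10.72, 10.24, 10.79 and 10.49 in FADD IEC-KO and 10.93, 10.76, 10.82, 10.56 and 10.76 in Casp8 fl/fl. The groups overlapped, the 2 low arrays were 117 and 124, and the difference of -0.16, with a 95% interval of -0.44 to 0.11, did not pass (limma adjusted p 0.48) and was -0.0041 without those 2 arrays. The runs differed by -0.64 ± 0.20 in this effect, which was not called (limma adjusted p 0.18), by -0.78 without FADD IEC-KO 21 and by -0.80 without arrays 117 and 124, both called (limma adjusted p 0.047 and 0.026). It was -0.25 and not called without arrays 22 and 23 (limma adjusted p 0.69). In CASP8 IEC-KO the difference from the floxed control was -0.20 in the first run and -0.17 in the second, with adjusted p-values of 0.59 and 0.53 in limma.

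Sgk1, the aldosterone-induced kinase gene, followed another pattern. It was lower in FADD IEC-KO of the second run. The log2 signals were 8.47, 8.95, 9.13, 8.55 and 8.49 in FADD IEC-KO and 9.62, 9.21, 9.39, 9.57 and 9.65 in Casp8 fl/fl, with no overlap (1 of 10 members, 6.99% of all genes). The difference was -0.77 ± 0.22 (limma adjusted p 0.017). Without arrays 117 and 124 it was -0.83 and still called (limma adjusted p 0.044). It was no longer called with the mean of the epithelial genes (limma adjusted p 0.091) or of the posterior Hox genes (0.059) as a covariate. In the first run Sgk1 read 9.12, 9.08, 8.86, 9.47 and 9.14 in FADD IEC-KO and 10.12, 9.32, 9.03, 8.72 and 8.87 in Fadd fl/fl, and the difference of -0.08 had a 95% interval of -0.52 to 0.37. CASP8 IEC-KO (86-124) was 0.57 ± 0.22 below Casp8 fl/fl and not called (limma adjusted p 0.14). The mean of FADD IEC-KO RIPK3 IEC-KO, at 9.05, was also below that of Casp8 fl/fl, at 9.49, and not called. All 3 knockout groups of the second run were thus below this control, whose mean was the second highest of the 10 groups.

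Sgk1 was also the second member, with Scnn1g, whose arrays did not overlap between the 2 co-deletions of FADD IEC-KO (2 of 10, 3.34% of all genes). The Zbp1 -/- arrays read 9.18, 8.94, 9.03, 8.31 and 9.29 and the Mlkl -/- arrays 9.57, 9.64, 9.35, 9.46 and 9.43. The Zbp1 group was 0.54 ± 0.22 lower, which did not pass (limma adjusted p 0.40, 0.426% of all genes called and 0 of the 10 members, 2 of them at an unadjusted p under 0.05). The genes most like Sgk1 over the 50 arrays were Stk17b (Pearson r 0.56), Lemd3 (0.56) and Hsdl2 (0.55).

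Slc26a3, the main apical chloride absorber of the colon and the gene mutated in congenital chloride diarrhoea, varied most within the FADD IEC-KO groups, with SDs of 0.80 and 0.49. Its log2 signals there in the first run were 12.60, 10.68, 11.18, 12.10 and 12.23, against 12.76, 12.55, 12.47, 12.33 and 12.16 in Fadd fl/fl. Of the FADD IEC-KO arrays 3 lay within the range of the controls or within 0.1 of it, and arrays 22 and 23 lay well below it. The difference was -0.70 ± 0.21 (limma adjusted p 0.017), and -0.14 without those 2 arrays (limma adjusted p 0.75). The call also ended without array 22 alone (-0.43), 23 alone (-0.55) or Fadd fl/fl 26 (-0.62). It ended as well with the posterior Hox genes (-0.47, limma adjusted p 0.17) or the clock score (-0.53, 0.058) as a covariate, and when only the 10 compared arrays were fitted (0.17). Zbp1 -/- arrays lay between 12.38 and 12.56 and Mlkl -/- arrays between 12.27 and 12.66. Slc26a3 was 0.72 ± 0.21 and 0.70 ± 0.21 higher in them than in FADD IEC-KO (limma adjusted p 0.023 and 0.040). Without arrays 22 and 23 the values were 0.17 and 0.14, not called (limma adjusted p 0.73 and 0.85). With the Hox covariate they were 0.56 and 0.57 (limma adjusted p 0.10 and 0.13), and the clock score ended the Mlkl call (0.57, 0.086). Array 22 or 23 alone sufficed to end both calls, and so did any 1 of the 5 Mlkl -/- arrays for the Mlkl call, at 0.65 to 0.74. In the second run FADD IEC-KO read 12.47, 12.28, 11.55, 12.62 and 11.62, and the 2 low values were again arrays 117 and 124. The difference from Casp8 fl/fl was -0.39, and -0.04 with those left out (limma adjusted p 0.24 and 0.95).

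Over the 50 arrays the deviations of Slc26a3 and Nr3c2 from their group means had a Pearson r of 0.86, the highest of the 45 pairs of members, and 0.71 without arrays 22 and 23. Both ran against the neutrophil list, with r of -0.83 and -0.84 over 50 arrays. So did Cftr (-0.76), Scnn1a (-0.67), Slc5a8 (-0.64), Slc16a1 (-0.54) and Slc9a3 (-0.40), but not Scnn1b (0.24), Scnn1g (0.26) or Sgk1 (-0.04). The part of the neutrophil-rich arrays in these values was not tested beyond leaving them out. With the mean of 14 smooth muscle genes Slc26a3 and Nr3c2 had r of 0.65 and 0.69, and Scnn1b and Scnn1g had -0.40 and -0.33. The part of smooth muscle was not tested. The 3 genes most like Slc26a3 were Slc15a1, a peptide carrier gene (0.91), Abcb1a, a drug efflux pump gene (0.90), and Car2, a carbonic anhydrase gene (0.90). Those most like Nr3c2 were Slc15a1 (0.87), Cyp2d12 (0.87) and Abcb1a (0.86), so Slc15a1 and Abcb1a were in both lists.

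**Figure D4:**
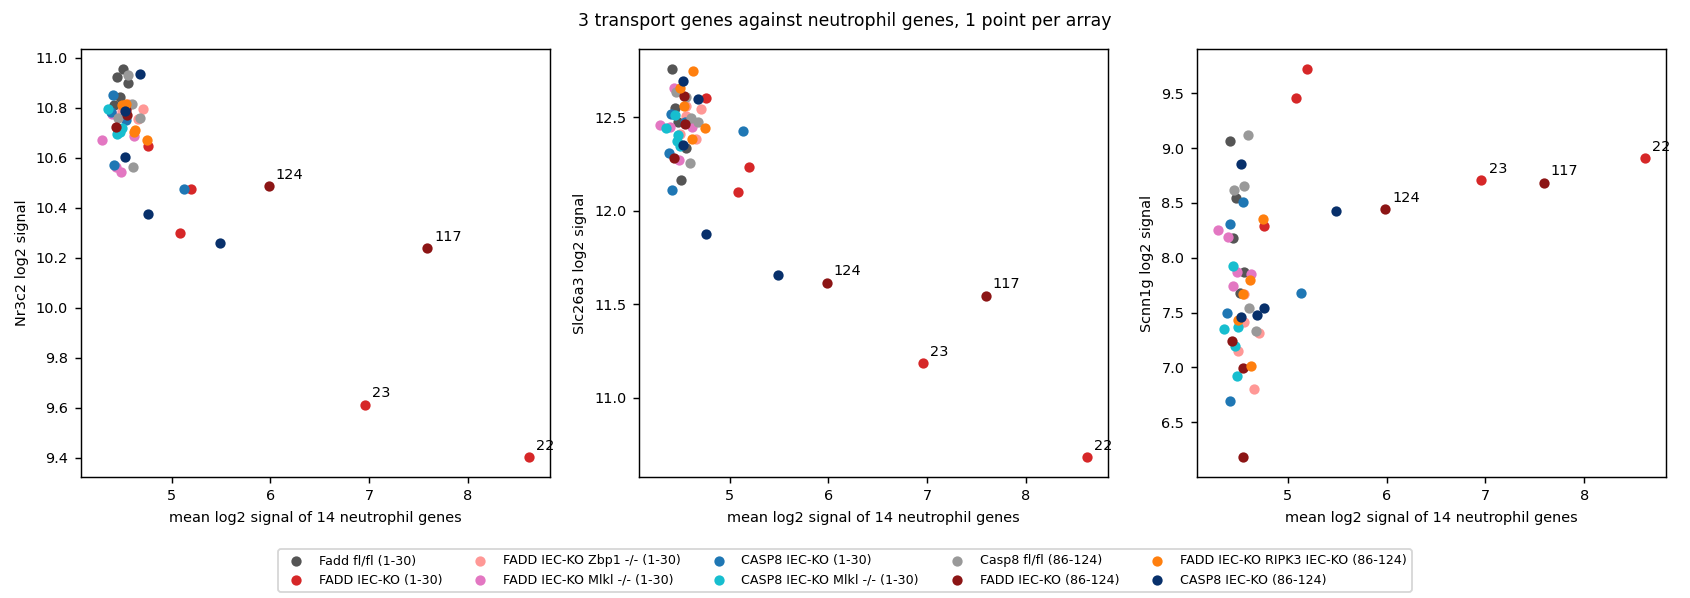
Log2 signal of Nr3c2, Slc26a3 and Scnn1g (vertical) against the mean log2 signal of 14 neutrophil genes (horizontal), 1 point per array; the numbered points are FADD IEC-KO arrays 22, 23, 117 and 124. Nr3c2 and Slc26a3 are lowest at array 22 (9.40 and 10.68), while Scnn1g of the 4 numbered arrays lies between 8.44 and 8.91.

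Cftr, the chloride channel gene, was lower in FADD IEC-KO of the second run. It read 9.53, 9.37, 8.52, 9.31 and 9.10 there and 9.58, 9.61, 9.48, 9.59 and 10.00 in Casp8 fl/fl. Array 89, at 9.53, lay within the range of the controls and the other FADD IEC-KO arrays below it. The difference was -0.49 ± 0.15 (limma adjusted p 0.033), and -0.25 without arrays 117 and 124 (limma adjusted p 0.41). Leaving out 117, 124, or Casp8 fl/fl 91 or 119, 1 at a time, also ended the call (-0.33, -0.47, -0.50 and -0.40), and so did the Hox covariate (-0.37, limma adjusted p 0.15). In the first run it was -0.39 ± 0.15 against Fadd fl/fl and did not pass (limma adjusted p 0.067), but did without FADD IEC-KO 21 or 24 (-0.50 and -0.46). With arrays 22 and 23 left out it was -0.14 (limma adjusted p 0.69). With Mlkl loss Cftr read 9.70, 9.76, 9.53, 9.48 and 9.64, against 9.51, 8.30, 9.14, 9.35 and 9.19 in FADD IEC-KO, and array 21 overlapped. It was 0.52 ± 0.15 higher (limma adjusted p 0.032), and 0.27 without arrays 22 and 23 (limma adjusted p 0.56). The call ended without 22 or 23 alone (0.32 and 0.53) and without Mlkl -/- array 11, 12 or 15 (0.50, 0.49 and 0.52), and with the clock score (0.47) or the Hox genes (0.44) as a covariate (limma adjusted p 0.068 and 0.10). CASP8 IEC-KO was 0.41 ± 0.11 above FADD IEC-KO over both runs (limma adjusted p 0.019), 0.31 without array 22 and 0.33 without array 117, where it was no longer called, and 0.17 without the 4 neutrophil-rich arrays (limma adjusted p 0.55). With the Hox covariate it was 0.29 (limma adjusted p 0.30). Genes most like Cftr were Nxpe2 (Pearson r 0.79 over 50 arrays), Nxpe4 (0.78) and Slc6a14 (0.77).

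Slc9a3, the apical sodium-proton exchanger gene, passed in none of the 19 contrasts in limma, with an unadjusted p under 0.05 in 7, but had the widest range of group means. CASP8 IEC-KO Mlkl -/- was lowest, with log2 signals of 9.33, 8.83, 7.43, 8.52 and 8.76. CASP8 IEC-KO (1-30) was highest, with 10.18, 10.26, 10.54, 10.71 and 10.23. The 2 groups did not overlap (1 of 10 members, 4.02% of all genes), and the difference was -1.81 ± 0.47, just outside the threshold (limma adjusted p 0.056). It was called when only the 10 compared arrays were fitted (0.019) and when the dimmest 40% of genes were left out (0.037). In CASP8 IEC-KO (86-124), at 11.03, 10.65, 9.98, 9.98 and 9.87, Slc9a3 was above all Casp8 fl/fl arrays, at 9.64, 9.42, 9.06, 9.03 and 9.22 (1 of 10 members without overlap, 2.93% of all genes). That difference of 1.03 ± 0.47 did not pass (limma adjusted p 0.22). With the mean of the epithelial genes as a covariate it was -0.0021, and over the 50 arrays the deviations of Slc9a3 and that mean had a Pearson r of 0.50. The epithelial means of these 2 groups did not overlap (10.74 to 10.96 and 10.52 to 10.73). That mean and the genotype therefore cannot be told apart here, and a part of epithelial content was not tested. In FADD IEC-KO (86-124) Slc9a3 was 0.27 above Casp8 fl/fl, and 1.06 without arrays 117 and 124 (limma adjusted p 0.76 and 0.22).

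Loss of Mlkl gave estimates of opposite sign in the 2 knockouts, -1.81 in CASP8 IEC-KO and 0.75 in FADD IEC-KO. The interaction for Slc9a3 was -2.57 ± 0.66 and not called (limma adjusted p 0.16, 0 of 10 members and 0.0154% of all genes called by limma, 6 members at an unadjusted p under 0.05). It was -2.88 and called without FADD IEC-KO 21 (limma adjusted p 0.029), but -2.35 and not called without arrays 22 and 23 (0.54). Slc9a3 is known from other tissues as a clock-controlled gene. The clock score is the mean log2 signal of Npas2, Clock and Arntl less the mean of Ciart, Per2, Per3, Nr1d1, Nr1d2, Tef and Dbp. Its group mean was highest in CASP8 IEC-KO Mlkl -/-, at 2.21, against -0.38 to 1.33 in the other groups. The score was 1.70 to 2.70 over CASP8 IEC-KO Mlkl -/- arrays, and -1.44 to 1.81 in CASP8 IEC-KO (1-30). Its SD was 0.45 in CASP8 IEC-KO Mlkl -/-, 1.41 in CASP8 IEC-KO (1-30) and 0.79 to 1.58 in the other 8 groups. With the score as a covariate the Slc9a3 difference was -1.33 (limma adjusted p 0.24), the interaction -1.87 (0.91), and the difference of CASP8 IEC-KO Mlkl -/- from Fadd fl/fl went from -0.60 to 0.02, none of them called. Only array 20 of CASP8 IEC-KO (1-30), at 1.81, and array 30 of Fadd fl/fl, at 1.74, reached the scores of CASP8 IEC-KO Mlkl -/-. In these comparisons the score and the genotype therefore cannot be told apart, and a part of the clock was not tested. The hour of collection is not given in the labels. Genes most like Slc9a3 were Dpep1, a brush border dipeptidase gene (Pearson r 0.84 over 50 arrays), Gstm6 (0.72) and Gcg, the proglucagon gene (0.72).

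Slc16a1, the proton-coupled butyrate and lactate carrier gene, was 0.41 ± 0.11 lower in FADD IEC-KO than in Fadd fl/fl in the first run (limma adjusted p 0.0072). The log2 signals were 10.34, 9.63, 9.97, 9.99 and 10.07 in FADD IEC-KO against 10.20, 10.43, 10.45, 10.43 and 10.51 in Fadd fl/fl. Of the FADD IEC-KO arrays 4 lay below every control and array 21 lay among them. With Zbp1 loss Slc16a1 was 0.41 ± 0.11 higher than in FADD IEC-KO (limma adjusted p 0.012), at 10.29, 10.58, 10.51, 10.26 and 10.42. Without arrays 22 and 23 the 2 differences were -0.27 and 0.28, neither called (limma adjusted p 0.20 and 0.26). Leaving out array 22 alone ended both calls (-0.31 and 0.32). In the second run FADD IEC-KO was 0.31 ± 0.11 below Casp8 fl/fl and did not pass (limma adjusted p 0.061), but did without FADD IEC-KO 95 or Casp8 fl/fl 98 or 119 (-0.36, -0.36 and -0.35). Without arrays 117 and 124 it was -0.18 (limma adjusted p 0.45).

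The highest Slc16a1 mean was in CASP8 IEC-KO Mlkl -/-, whose arrays read 10.89, 10.67, 10.66, 10.65 and 10.63. They lay above all 5 Fadd fl/fl arrays, and Scnn1b and Nr3c2 lay below all 5 (3 of 10 members without overlap, 2.82% of all genes), with none of these called. Against FADD IEC-KO Mlkl -/-, at 10.12, 10.52, 10.18, 10.24 and 10.11, Slc16a1 was 0.46 ± 0.11 higher with no overlap (limma adjusted p 0.042), the 1 member called in that contrast (0.457% of all genes). The call ended without any 1 of 8 of the 10 arrays, all but CASP8 IEC-KO Mlkl -/- 10 and FADD IEC-KO Mlkl -/- 12, with differences of 0.42 to 0.48. The difference for Slc9a3 between the same groups was -1.76, also without overlap (2 of 10, 4.96% of all genes), and not called (0.062). With the clock score as a covariate the Slc16a1 difference was 0.36 and not called (0.20). CASP8 IEC-KO was 0.25 ± 0.08 above FADD IEC-KO over both runs (limma adjusted p 0.047), 0.12 without the 4 neutrophil-rich arrays (limma adjusted p 0.67), and 0.23 with the epithelial or the Hox genes as a covariate (0.057 and 0.26). Of the 20 arrays, leaving out FADD IEC-KO 22, 23, 24, 117 or 124 or CASP8 IEC-KO 16, 18, 20, 92, 100 or 108 ended this call, at 0.21 to 0.27.

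Slc5a8, the sodium-coupled butyrate carrier gene, was 0.34 ± 0.12 lower in FADD IEC-KO of the second run (limma adjusted p 0.045). It read 11.35, 11.26, 10.89, 11.32 and 11.03 there against 11.62, 11.66, 11.29, 11.61 and 11.38 in Casp8 fl/fl. Arrays 89 and 120 of FADD IEC-KO lay above the lowest control, and without arrays 117 and 124 the difference was -0.20 and not called (limma adjusted p 0.40). The call also ended without 117 or 124 alone or without Casp8 fl/fl 86, 91 or 105, at -0.32 to -0.27, and with the Hox genes (-0.29, limma adjusted p 0.14) or the clock score (-0.34, 0.052) as a covariate. In the first run it was -0.29 ± 0.12 against Fadd fl/fl and not called (limma adjusted p 0.072), but was without FADD IEC-KO 21 or 25 (-0.35 and -0.36). That difference was -0.14 without arrays 22 and 23 (limma adjusted p 0.54). Over the 50 arrays Slc5a8 varied with Slc16a1 (Pearson r 0.73) and Cftr (0.75). Genes most like it were Aldh2, an aldehyde dehydrogenase gene, and Cdhr2, a brush border cadherin gene (both 0.79), and Vwa8 (0.78), and those most like Slc16a1 were Sult1d1 (0.83), Insr, the insulin receptor gene (0.82), and Gde1 (0.80).

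Around the members, genes that regulate the sodium channel changed in both directions. Of 19 genes of channel regulation and the aldosterone response, 3 rose and 3 fell in FADD IEC-KO (1-30), where 18.7% of all genes were called, with a median difference of -0.14. Of the 19, 1 rose and none fell without arrays 22 and 23, where 3.50% of all genes were called. Sgk2, a kinase of the Sgk1 family, rose by 1.23 ± 0.21 (limma adjusted p 1.3e-04) and St14, the gene of the protease matriptase, by 0.38. The ubiquitin ligase genes Nedd4 and Nedd4l fell by 0.31 and 0.36 (limma adjusted p 0.0023 and 0.0044). In FADD IEC-KO (86-124) 5 rose and none fell (11.0% of all genes called), or 3 without arrays 117 and 124 (5.29%). Among the 5 were St14 by 0.43, Spint2, a protease inhibitor gene, by 0.29, Tmprss4, a channel-cleaving protease gene, by 0.31, and Sgk2 by 0.84. With Zbp1 loss 2 rose and 1 fell against FADD IEC-KO (10.8% of all genes called), with differences of 0.38 for Nedd4l, 0.21 for Wnk1 and -0.77 for Sgk2. With Mlkl loss Tmprss4 fell by 0.34 and no other passed (5.85%). The lists of transport, fatty acid and surface colonocyte genes described from here on hold 80 genes with these 19. None of the 80 was called by limma with Zbp1 or Mlkl loss when arrays 22 and 23 were left out, where 0.621% and 0.0410% of all genes were, and 18 and 9 had an unadjusted p under 0.05.

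Of 9 genes of sodium-proton exchange and its adaptors, 2 fell in FADD IEC-KO (1-30), where 18.7% of all genes were called, and none without arrays 22 and 23 (2 at an unadjusted p under 0.05 in limma): Slc9a2, a second apical exchanger gene, by 0.75 ± 0.18 and Chp2, an exchanger cofactor gene, by 0.61. Slc9a2 rose by 0.60 with Zbp1 loss (10.8% of all genes called) and by 0.63 with Mlkl loss (5.85%) against FADD IEC-KO. In the Zbp1 comparison Chp1 and the adaptor gene Slc9a3r2 rose too, by 0.37 and 0.60. In FADD IEC-KO (86-124), where 11.0% of all genes were called, Chp1 and Slc9a3r1 rose by 0.32 and 0.44, and Slc9a2 was not among those that passed.

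Of 10 other chloride, bicarbonate and sulfate transport genes, 3 fell and none rose in FADD IEC-KO (1-30), against 18.7% of all genes called: Ano1, a calcium-gated chloride channel gene, by 0.54, the sulfate carrier gene Slc26a2 by 0.73 and the sodium bicarbonate carrier gene Slc4a4 by 0.81. In the second run 2 fell (11.0% of all genes called), Ano1 by 0.45 and Slc4a1 by 0.30. None of the 10 was called by limma without arrays 22 and 23 in the first run or 117 and 124 in the second, with 1 and 3 at an unadjusted p under 0.05. Of 5 genes of guanylin signalling, which acts on CFTR through cyclic GMP, Guca2b, the uroguanylin gene, rose by 0.46 and 0.49 in the 2 runs and Pde5a fell by 0.77 and 0.45. In these runs 18.7% and 11.0% of all genes were called. Without the 2 arrays of each run 1 of the 5 was called in the first (3.50% of all genes) and 0 in the second (5.29%). Each had 1 at an unadjusted p under 0.05 in limma. Guca2a, the guanylin gene, rose by 0.97 with Zbp1 loss (10.8% of all genes called). Pde5a is also high in smooth muscle, and all 14 smooth muscle genes fell between Fadd fl/fl and FADD IEC-KO of the first run (median -1.09). Without arrays 22 and 23, 6 of the 14 were called as lower, where 3.50% of all genes were called. In that fit 0 of the 14 lay above 0 (median -0.69), and 14 had an unadjusted p under 0.05 in limma. Whether cells outside the epithelium, such as smooth muscle, had a part in the Pde5a or Ano1 values was not tested.

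Of 12 genes of short-chain fatty acid transport and sensing, 2 rose and 2 fell in FADD IEC-KO (1-30), where 18.7% of all genes were called. Without arrays 22 and 23, 1 fell (3.50% of all genes called). Emb, a chaperone gene of the monocarboxylate carriers that leukocytes also express, rose by 1.73 and Ffar2, a fatty acid receptor gene that neutrophils also express, by 0.43. The carrier genes Slc16a7 and Slc16a9 fell by 1.00 and 0.67. With Zbp1 loss Bsg, the other chaperone gene of SLC16A1, rose by 0.25, Slc16a7 by 0.79 and Abcg2 by 0.59, and Slc16a3, a lactate exporter gene, fell by 0.74. In that comparison 10.8% of all genes were called. Of 9 genes of fatty acid oxidation and ketone formation, Acsm3 fell by 0.48 and Bdh1 rose by 0.31 in FADD IEC-KO (1-30), again with 18.7% of all genes called. Without arrays 22 and 23, 1 of the 9 was called, where 3.50% of all genes were. Of 8 pump and potassium channel genes Kcnq1, a basolateral potassium channel gene, fell by 0.41 in FADD IEC-KO (1-30) and rose by 0.56 with Zbp1 loss, while Slc12a2, the chloride loading carrier gene, fell by 0.46 with Zbp1 loss and by 0.30 with Mlkl loss. The shares of all genes called were 18.7% in FADD IEC-KO (1-30), 10.8% with Zbp1 loss and 5.85% with Mlkl loss.

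Surface colonocyte markers changed in the same comparisons. Of 9 such genes, Car1 fell by 1.06 and the phosphate carrier gene Slc20a1 by 1.08 in FADD IEC-KO (1-30), while Krt20 rose by 0.52 and Ceacam1 by 0.24, or 4 of 9 where 18.7% of all genes were called. In the fit without arrays 22 and 23, 1 rose and 1 fell (3.50% of all genes called), and the median difference of the 9 went from -0.29 to 0.04. The mean of the list was 11.13 ± 0.40 (SD, n = 5) there and 11.46 ± 0.08 in Fadd fl/fl, with values of 10.59 to 11.67 over the 5 FADD IEC-KO arrays. With Zbp1 loss 4 rose and 1 fell against FADD IEC-KO (10.8% of all genes called), among them Slc20a1 by 1.35 and Car1 by 0.84. Of 14 neutrophil genes, 12 rose in FADD IEC-KO (1-30) and none fell, where 18.7% of all genes were called. With Zbp1 loss 11 of 14 fell, where 10.8% of all genes were called. None passed in either comparison in limma without arrays 22 and 23 (3 and 1 at an unadjusted p under 0.05). Those arrays stand out by the mean of these same genes, so a loss of calls without them was largely set in advance. In that fit 13 of 14 still lay above 0 in FADD IEC-KO (1-30) (median 0.43), and 0 of 14 with Zbp1 loss (median -0.32). Whether a change in cell make-up had a part in the members' values was not tested beyond the values without arrays 22, 23, 117 and 124.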

How the data were processed

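Colon RNA of 50 mice was hybridised to Affymetrix arrays, 1 array per title number. The authors deposited log2 signals per probe set, made with Affymetrix Expression Console and Transcriptome Analysis Console, per the submitters' processing notes, which give no versions. How probes were summarised and background removed is not stated there. Of 22142 probe sets, 19527 carry 1 gene symbol and 2615 none; the probe set with the highest mean was kept per symbol, which dropped 33 and left 19494 genes. Array medians lay between 6.41 and 6.47, so values were used as deposited. The number of arrays, not a read depth, sets the precision.

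One mean per group was fitted to all 50 arrays with limma 3.58.1 in R 4.3.3 (40 residual degrees of freedom), with Benjamini-Hochberg adjustment. Each SE of a difference thus uses 1 spread per gene shared by the 10 groups. The SDs of the groups were unequal, so SEs and p-values for a group with a wide spread, such as FADD IEC-KO, can look firmer than its own arrays allow. The labels do not say how littermates or collection days were spread, so p-values measure the spread between these samples. In simulated data for FADD IEC-KO against Fadd fl/fl over 19494 genes, 60 of 100 changes of 0.5 and 97 of 100 of 1 (log2) were called, with 13 false calls. The simulated noise was independent between genes and had the same SD in every group. Real SDs differed, as for Slc26a3 with 0.80 in FADD IEC-KO (1-30) and 0.22 in Fadd fl/fl. These rates therefore may not hold for the measured arrays. The members, gene lists and tests were chosen with earlier results of these data known. All 10 members are named in each comparison, and of other lists up to 4 genes with the smallest adjusted p. Likeness is the Pearson r of deviations from group means. The 2 differences between runs and the 2 comparisons between co-deletions were added after values were seen. Alternatives were quantile normalization, a filter on dim genes, a fit restricted to the compared arrays, robust moderation with a trend, covariates (sex, clock, epithelium, posterior Hox genes), pooled runs and left-out arrays.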

Additional observations from a re-analysis of the deposited data

Results flagged for a closer look

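In groups of 5 arrays, a lowest or highest value whose gap to the nearest array was more than 0.71 of the group's range was marked. This happened in 8 of 100 member and group pairs, where chance gives about 1 in 20. Scnn1a of FADD IEC-KO array 22 was low, at a log2 signal of 9.2031 against 9.78 to 9.97 in the other arrays. This is the array with the highest neutrophil genes, and the part of those cells was not tested. Slc5a8 was low in CASP8 IEC-KO array 104, at 11.0406, and array 112 of FADD IEC-KO RIPK3 IEC-KO, at 11.1067, and high in FADD IEC-KO Mlkl -/- array 12, at 11.5243. Slc16a1 was high in CASP8 IEC-KO Mlkl -/- array 6, at 10.8881, and low in Fadd fl/fl array 26, at 10.1986. Cftr was high in Casp8 fl/fl array 119, at 9.997. Nr3c2 was high in CASP8 IEC-KO Mlkl -/- array 6, at 10.7962, the array that was also high in Slc16a1.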

How the results depend on the processing

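Of 4080 member differences recomputed under another setting, 3897 kept their direction and side of the threshold, 110 lost a call, 59 gained one and 14 changed sign; 155 differences that changed sign within 1 SE without a call were counted as kept. Members called of 10 changed as follows, and the cause was not tested. With only the compared arrays fitted, they were 1 for FADD IEC-KO against its floxed control in each run, 0 for CASP8 IEC-KO against FADD IEC-KO, 1 for Zbp1 loss, 0 for Mlkl loss in FADD IEC-KO and 1 in CASP8 IEC-KO. With the dimmest 40% of genes left out they were 6 for FADD IEC-KO (1-30), 5 for CASP8 IEC-KO against FADD IEC-KO (5 also after quantile normalization) and 1 for Mlkl loss in CASP8 IEC-KO. The clock covariate gave 2 for Mlkl loss in FADD IEC-KO and the epithelium covariate 7 for FADD IEC-KO (1-30). The Hox covariate gave 0 for FADD IEC-KO (86-124), 1 for CASP8 IEC-KO against FADD IEC-KO and 2 for Mlkl loss in FADD IEC-KO. Pooled runs gave 3 for Zbp1 loss, 1 for Mlkl loss in FADD IEC-KO and 2 in CASP8 IEC-KO. Without arrays 22 and 23, FADD IEC-KO (1-30), CASP8 IEC-KO against FADD IEC-KO and Zbp1 loss each had 1 and Mlkl loss 0; without 117 and 124 as well, CASP8 IEC-KO against FADD IEC-KO had 0. Leaving out 1 array gave 1 to 6 for FADD IEC-KO (1-30), 1 to 4 in the second run, 1 to 7 for CASP8 IEC-KO against FADD IEC-KO, 3 to 5 for Zbp1 loss, 0 to 5 for Mlkl loss and 0 to 1 for the interaction. Removal of arrays 117 and 124, and of all 4, was chosen after seeing the data.

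None of the sign changes had a call on either side. With the clock covariate, CASP8 IEC-KO Mlkl -/- minus Fadd fl/fl was 0.023 for Slc9a3 and 0.0812 for Nr3c2. With the epithelium covariate, CASP8 IEC-KO minus Casp8 fl/fl was -0.0070 for Scnn1a and -0.0021 for Slc9a3, and FADD IEC-KO RIPK3 IEC-KO minus Casp8 fl/fl was -0.11 for Slc9a3. With pooled runs the interaction for Scnn1g was -0.21. Zbp1 loss gave -0.0072 for Slc5a8 and -0.0015 for Cftr without array 22, with ranges up to 0.2187 and 0.3008 when 1 array was left out. Without 22 and 23 Scnn1a was 0.0144 in FADD IEC-KO (1-30) and -0.0022 with Mlkl loss, Cftr -0.055 with Zbp1 loss, and Slc26a3 0.25 in the difference between runs. Without 117 and 124 Nr3c2 was -0.0194 for RIPK3 loss, and without all 4 Slc26a3 was -0.0816 for CASP8 IEC-KO against FADD IEC-KO. No paired analysis was possible because each title number belongs to 1 array and the groups share none. Each member has 1 probe set, so averaging probe sets could not be tried.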
